A study of Mus musculus with 40 samples.

Results

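The libraries described are RNA-seq profiles of 8 whole mouse embryos collected at embryonic day 9.5 (E9.5), 4 with point mutations in both Kat6a and Kat6b and 4 wild-type (WT), out of 40 libraries in the whole series. They were chosen by genotype and tissue alone. The double mutants were homozygous for Kat6a G656E and for Kat6b G577E, each an exchange of glycine for glutamate made by genome editing on the C57BL/6J strain, and are written Kat6a E/E;Kat6b E/E. The WT embryos carried neither change. The E9.5 set also held 4 libraries each of embryos with only the Kat6a G656E change (Kat6a E/E), only the Kat6b G577E change (Kat6b E/E), a Kat6a null allele or a Kat6b null allele, and these 16 libraries entered the same model as the 8. All embryos were male, were matched for stage by their outer appearance and were genotyped from extra-embryonic membranes. The remaining 16 libraries were made from E14.5 fetal liver cells sorted as lineage-negative, SCA1-positive, KIT-positive (LSK) cells, a fraction enriched for blood stem and progenitor cells, of fetuses that were WT, double mutant or mutant in 1 of the 2 genes.

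KAT6A (also MOZ) and KAT6B (also MORF or QKF) are closely related lysine acetyltransferases of the MYST family. Each is the catalytic subunit of a complex with a BRPF scaffold, an ING reader and MEAF6, and acetylates lysines in the tail of histone H3 at active genes. KAT6A is known for its roles in blood stem cells, in the Hox code of the body axis and in heart and pharyngeal development through T-box genes. KAT6B is known for its role in neural progenitors. The mutated glycines lie in the catalytic domain, where MYST enzymes bind their acetyl donor acetyl-CoA. The point mutants thus address the enzymatic activity, whereas a null allele removes the protein as well.

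The mutated codons are shown with the bases around them because they define the genotype. Both genes lie on the forward strand of GRCm39 (mm39). The Kat6a codon occupies chr8:23416459-23416461 in exon 13 of 18, and the Kat6b codon occupies chr14:21687681-21687683 in exon 12 of 17. The windows below run over chr8:23416423-23416486 and chr14:21687645-21687708, 64 bases each, with the codon in capitals, and the edited lines carry the codons that the study's methods give for the mutant alleles.
Kat6a WT: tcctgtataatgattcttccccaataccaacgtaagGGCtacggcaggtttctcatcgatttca
Kat6a G656E: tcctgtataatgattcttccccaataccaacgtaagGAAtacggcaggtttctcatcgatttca
Kat6b WT: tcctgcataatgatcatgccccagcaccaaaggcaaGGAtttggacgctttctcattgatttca
Kat6b G577E: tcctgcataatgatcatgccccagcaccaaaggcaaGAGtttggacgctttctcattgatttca

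The 8 libraries held 11823454 to 19078839 counted read pairs in WT and 14678249 to 17759715 in double mutants, each with 4 libraries. Tissue markers of a whole E9.5 embryo were present in every library. Double mutant replicate 2 stood apart with raised endothelial markers (summed level of Kdr, Cdh5 and Pecam1 336 CPM, counts scaled to library size, against 222 to 252 in the other 7) and raised hypoxia-responsive genes, described with that list. WT replicate 4 stood apart with yolk sac visceral endoderm markers (summed level 128 CPM over 5 genes, Afp, Apoa1, Ttr, Amn and Cubn, against 21.5 to 41.1 in the other 7), with low primitive globins and with the lowest neuronal markers of the WT set. Trophoblast and decidua markers stayed at or below 1.84 CPM in sum, with Tpbpa and Prl8a2 at 0 in all 8. Double mutant replicates 1 and 3 were littermates, and no litter held both genotypes, so that litter and genotype cannot be told apart in this comparison. WT replicates 1, 2 and 3 shared litters with a Kat6a null, a Kat6a E/E and a Kat6b null embryo. No double mutant shared a litter with another genotype. The methods give C57BL/6 for the null strains and C57BL/6J for the point mutants, so that breeding line is not separated from genotype. In whole embryos, fewer cells of a type and less RNA per cell cannot be told apart either.

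No difference was called in the transcripts of the mutated genes. Kat6a was at 180, 169, 186 and 169 CPM in WT replicates 1 to 4 and 177, 164, 173 and 168 CPM in double mutant replicates 1 to 4, the order used for all values below, and the groups overlapped (log2 fold change -0.05 ± 0.09, FDR = 0.825). The second gene, Kat6b, was at 42.6, 38.2, 42.6 and 38.3 CPM in WT and 41.998, 55.97, 40.7 and 40.7 CPM in double mutants (log2 fold change 0.08 ± 0.07, FDR = 0.568), with replicate 2 above all other libraries. Fold changes are model estimates of log2 of double mutant over WT, with their standard error. They are adjusted for 4 surrogate variables, which stand for unlabelled variation between libraries, and so can differ from the ratio of the CPM values shown. Without that adjustment Foxc2 was at -0.19 and Ddit4 at 1.53, which differ from the adjusted values given below. FDR is the Benjamini-Hochberg adjusted p of limma over all 14183 genes tested. These counts do not read the mutated bases and so do not check the genotype. None of the 14 listed MYST acetyltransferases and complex subunits was called (median log2 fold change -0.0018), and the nearest were the scaffold gene Brpf1 (-0.14 ± 0.07, FDR = 0.233) and Jade1, a subunit gene of the related KAT7 complex (0.13 ± 0.05, FDR = 0.207).

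At an FDR under 0.05, 413 of the 14183 genes (2.91%) were called between double mutant and WT embryos, 223 lower (1.57%) and 190 higher (1.34%) in double mutants. These shares are the background for the counts of called genes in each list below. Absolute log2 fold changes had a median of 0.22 among the lower and 0.28 among the higher genes. A fold of 1.5 was exceeded by 17 lower and 26 higher genes, and a fold of 2 by 4 and 6. CPM values of the 2 groups did not overlap for 143 of the genes called lower (64.1%) and 100 of those called higher (52.6%). Over all genes tested this held for 1037 (7.31%), with 3.94% lower and 3.37% higher in double mutants. The count rested on the 4 surrogate variables of the model, which stand for unlabelled variation between libraries: without them no gene was called by limma (1689 genes at an unadjusted p under 0.05) or by edgeR's quasi-likelihood test (1972 genes). It fell to 116 and 115 calls without WT replicates 2 and 3, to 200 without WT replicate 1, and to 218 (136 lower and 82 higher) without double mutant replicate 2, and 56 of the 413 genes (37 lower and 19 higher) remained called whichever of the 8 libraries was left out. All 413 kept their direction under every alternative that tested them, and 412 were tested in the fits with only the 8 libraries. The alternatives refit the libraries in which the 413 were chosen, so that kept direction is no independent check of the calls.

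**Figure D1:**
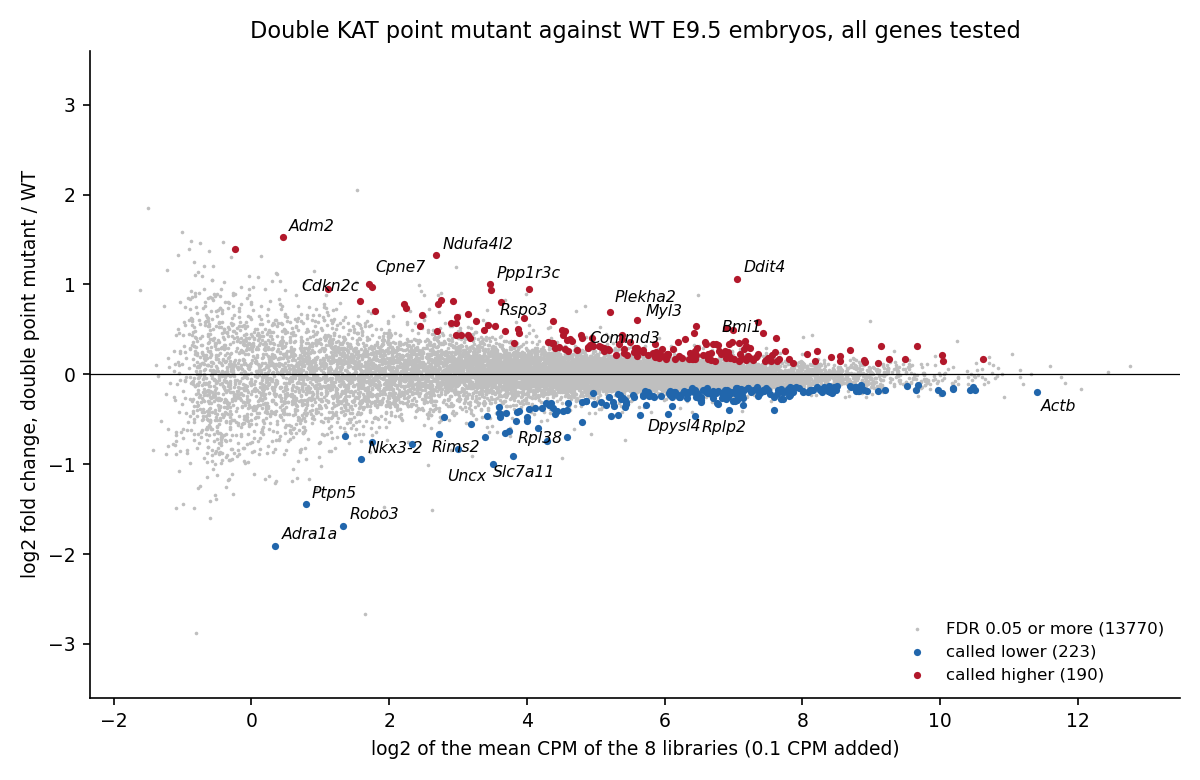
Log2 fold change of double point mutant over WT E9.5 embryos (vertical axis) against log2 of the mean CPM of the 8 libraries plus 0.1 CPM (horizontal axis) for 14183 genes, one point a gene. The 223 genes called lower (blue) and 190 called higher (red) lie mostly within 1 log2 unit of 0, and the genes farthest from 0 are lowly expressed.

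The pair Commd3 and Bmi1 gave some of the clearest increases. Bmi1 encodes a core subunit of Polycomb repressive complex 1 and restrains the Cdkn2a cell cycle inhibitor locus, and Commd3, a member of the COMM domain family of endosomal sorting proteins, lies just before it on the same strand. Commd3 (chr2:18677221-18681045) was at 21.6, 22.5, 25.6 and 22.4 CPM in WT and 31.9, 29.2, 33.3 and 34.2 CPM in double mutants, with every double mutant above every WT library (log2 fold change 0.44 ± 0.07, FDR = 0.0038). Bmi1 (chr2:18681292-18691441), 246 bases further on, was at 95.1, 92.1, 96.2 and 90.2 CPM in WT and 123, 99.8, 124 and 112 CPM in double mutants, again without overlap (log2 fold change 0.33 ± 0.06, FDR = 0.00498). Both calls were kept whichever library was left out. By sequence, 76.3% of the Bmi1 transcript has a near-identical copy elsewhere in the genome, so that its count is uncertain, whereas Commd3 has no such limit.

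Around the pair, neighbouring genes differed. Skida1, which encodes a SKI/DACH domain protein and ends 623 kb before Commd3, fell from 78.02, 77.3, 73.8 and 87.5 CPM to 53.9, 62.8, 56.1 and 60.9 CPM (log2 fold change -0.35 ± 0.08, FDR = 0.016). The Skida1 call was lost without either of WT replicates 2 and 4 (FDR = 0.0575 to 0.063). The flanking genes Dnajc1 (log2 fold change 0.18 ± 0.07, FDR = 0.129) and Pip4k2a (0.08 ± 0.07, FDR = 0.577) did not pass the test. Among the 20 listed Polycomb genes Bmi1 alone was called, and none of 12 trithorax genes was. Over the 32 genes this was 3.1%, against 2.91% called over all genes.

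The pair was also higher in Kat6a E/E than in Kat6b E/E embryos on average. Commd3 averaged 23.03 ± 1.77 CPM in WT, 22.5 ± 1.95 in Kat6b E/E, 28.6 ± 2.12 in Kat6a E/E and 32.1 ± 2.18 in double mutants (SD, n = 4 each). In the same order Bmi1 averaged 93.4 ± 2.75, 92.3 ± 5.804, 116 ± 5.18 and 115 ± 11.2 CPM. Against Kat6b E/E directly, the double mutants were higher for Commd3 (log2 difference 0.50 ± 0.07, FDR = 0.00333) and Bmi1 (0.34 ± 0.06, FDR = 0.0391). Against Kat6a E/E they were at 0.14 ± 0.07, FDR = 0.534 for Commd3 and 0.04 ± 0.06, FDR = 0.888 for Bmi1, so no difference from the Kat6a single mutant was called.

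**Figure D2:**
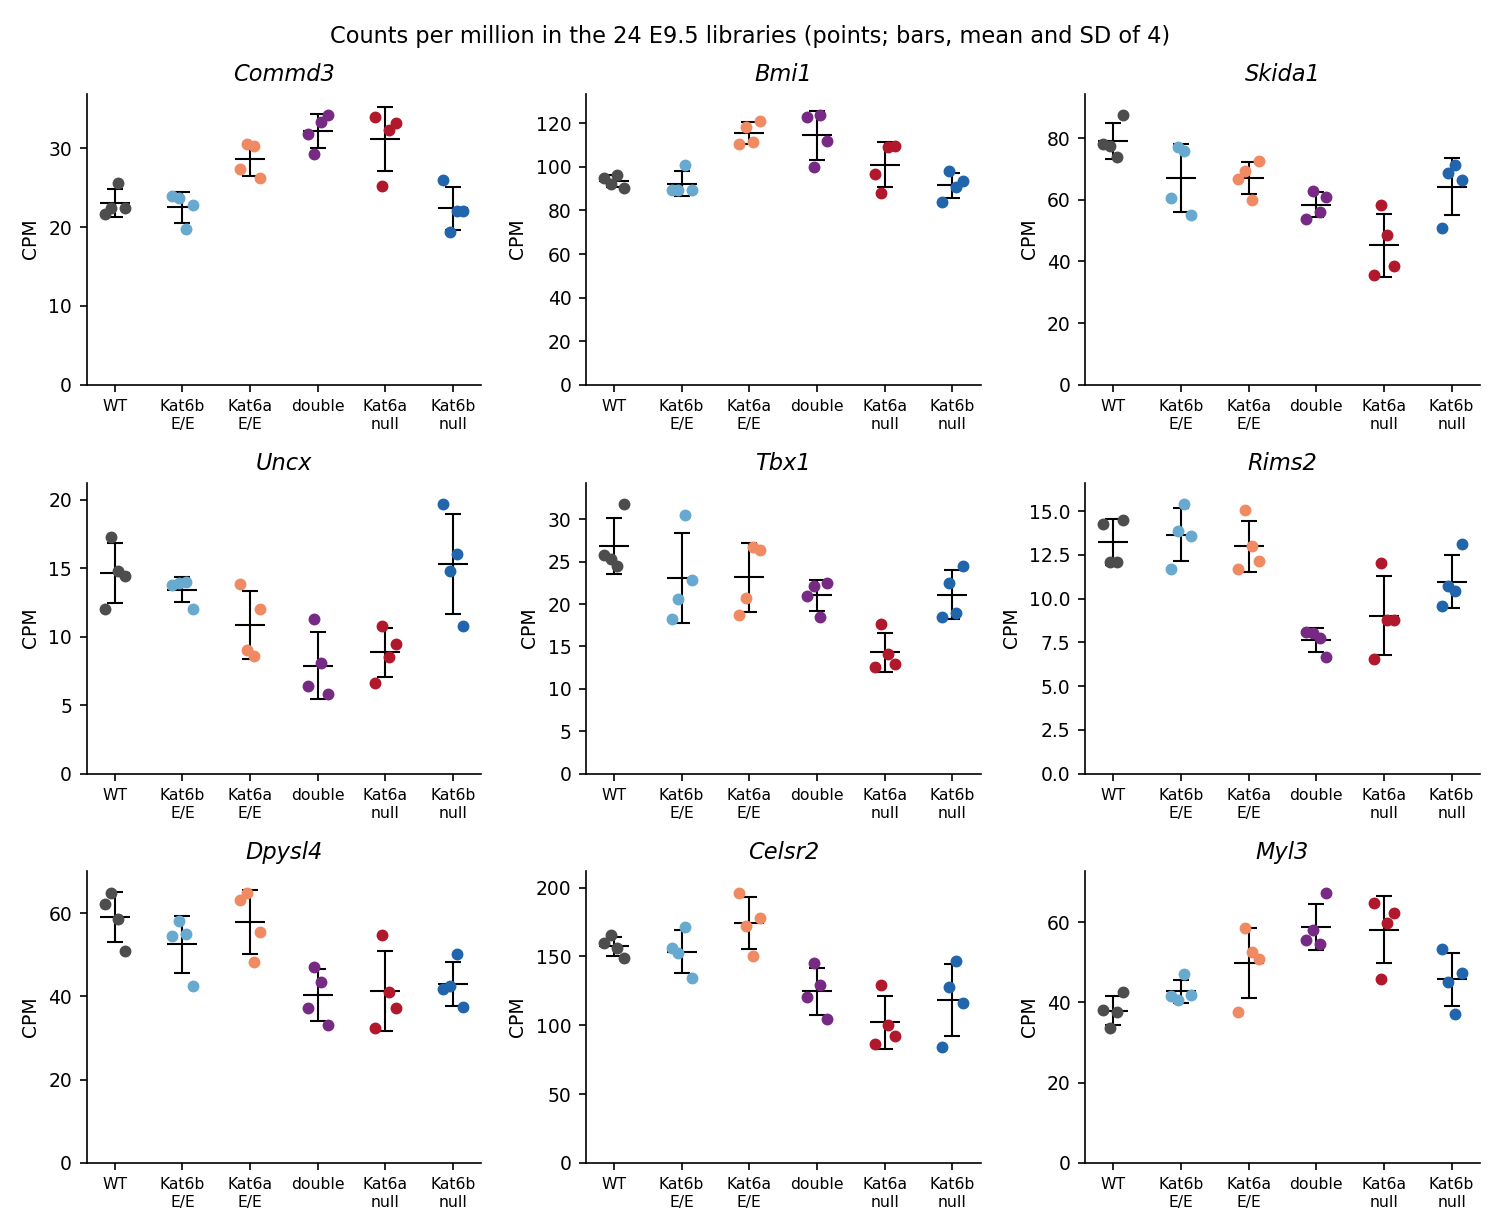
CPM (vertical axes, from 0) of 9 named genes in each of the 24 E9.5 libraries by genotype, with points for libraries and bars for the mean and SD of 4. The means of Commd3 and Bmi1 are higher in double mutant than in WT and Kat6b E/E embryos, Rims2 and Dpysl4 sit lower in double mutants than in WT, and Uncx runs from 5.86 to 11.3 CPM in double mutants against 12.02 to 17.3 CPM in WT.

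Transcription factors of the heart and pharynx that the study followed (Tbx1, Tbx2, Tbx5, Tbx15, Foxa2, Foxc1 and Foxc2) all lay below 0, and 1 of them, Foxc2, passed the test. The study reported lower Tbx1, Tbx5, Tbx15 and Foxc2 in double mutants at the same FDR threshold. Tbx1, Tbx5 and Tbx15 did not pass it here, and the reason for this difference was not tested. These calls depended on the setting. Of 24 alternative fits, among them those leaving out 1 library, Tbx1 passed in 3, Tbx15 in 6, Tbx5 in 0 and Foxc2 in 5. Tbx1, the T-box gene of the pharyngeal arches and outflow tract, was at 25.8, 25.3, 24.5 and 31.8 CPM in WT and 20.9, 22.1, 18.5 and 22.5 CPM in double mutants (log2 fold change -0.33 ± 0.10, FDR = 0.0705), without overlap between groups. Tbx5, of the cardiac inflow region and forelimb, was at 15.3 to 23.9 CPM in WT and 17.05 to 20.1 CPM in double mutants (log2 fold change -0.21 ± 0.11, FDR = 0.303). Tbx2, a repressor of chamber genes in the atrioventricular canal, was at -0.28 ± 0.11, FDR = 0.146, and Tbx15, of mesenchyme, at -0.86 ± 0.26, FDR = 0.0682. Over the 12 T-box genes tested none was called, 8 were below 0 and the median was -0.03.

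Forkhead genes gave 2 calls. Foxp4, a forkhead repressor of heart and foregut, fell from a range of 315 to 355 CPM in WT to 271 to 310 CPM in double mutants without overlap (log2 fold change -0.20 ± 0.05, FDR = 0.0204). The Foxp4 call was lost without any one of WT replicates 2 and 3 and double mutant replicate 3 (FDR = 0.0672 to 0.078). Foxc2, of the paraxial mesoderm and outflow tract, was at 40.6, 47.4, 43.7 and 50.9 CPM in WT and 37.04, 52.7, 31.1 and 38.998 CPM in double mutants (log2 fold change -0.37 ± 0.10, FDR = 0.0445). Double mutant replicate 2 held the highest value of all 8, and the call was lost without any one library (FDR = 0.0544 to 0.165 over the 8). Foxc1 (-0.13 ± 0.06, FDR = 0.266) and the endoderm and floor plate gene Foxa2 (-0.17 ± 0.19, FDR = 0.672) were not called. Over the list 13 of 16 forkhead genes lay below 0 (median -0.13). Of 27 pharyngeal arch and second heart field genes Foxc2 alone was called (3.70%, against 2.91% over all genes, median -0.04).

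Genes of the differentiating somite lay below WT in double mutants, and 3 of them were called. Somites are the blocks of paraxial mesoderm that form vertebrae, ribs and trunk muscle, and Uncx, Nkx3-2 and Pax1 mark or act in the sclerotome, their vertebra-forming part. Uncx (chr5:139529249-139533934) was at 12.02, 17.3, 14.8 and 14.47 CPM in WT and 6.39, 11.3, 8.06 and 5.86 CPM in double mutants, without overlap. The adjusted estimate was 2.005-fold lower, and the Uncx call was kept whichever library was left out (log2 fold change -1.003 ± 0.18, FDR = 0.00557). Nkx3-2, also Bapx1, was at 3.46, 4.202, 4.31 and 2.95 CPM in WT and 2.07, 3.16, 1.51 and 1.62 CPM in double mutants (log2 fold change -0.94 ± 0.24, FDR = 0.0332). The highest double mutant lay within the WT range, and the call was lost without any one of WT replicates 1, 2 and 3 and double mutant replicates 3 and 4 (FDR = 0.0647 to 0.122). Pax1 was at 27.7, 28.8, 24.6 and 32.3 CPM in WT and 16.6, 21.9, 15.02 and 14.1 CPM in double mutants without overlap (log2 fold change -0.93 ± 0.27, FDR = 0.0849), a difference that did not pass the test. All 15 somite derivative genes tested lay below 0 with a median of -0.37, 3 of them called (Uncx, Nkx3-2 and Foxc2). Over the somite list of 27 these calls were 11.1%, against 1.57% called lower over all genes. The 12 presomitic and segmentation genes gave no call, 4 below 0, with a median of 0.13. The summed level of the somite markers Meox1, Tcf15 and Uncx was 111 to 133 CPM in WT and 85.5 to 114 CPM in double mutants.

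Hox genes, which pattern the body axis, gave 2 calls. Of 38 tested, 2 were called lower (5.26%, against 1.57% over all genes) and none higher, 19 lay below 0, and the median was -0.02. The sign of that median changed with the setting. It was 0.21 without surrogate variables (26 of 38 above 0) and 0.20 with only the 8 libraries and 1 surrogate variable. Without WT replicate 4 the median was -0.19, with 25 below 0. Hoxa2, of the second pharyngeal arch and hindbrain, was at 22.7, 22.6, 28.2 and 24.2 CPM in WT and 17.98, 20.8, 16.8 and 19.2 CPM in double mutants without overlap (log2 fold change -0.41 ± 0.10, FDR = 0.0318). The Hoxa2 call was lost without any one of WT replicates 2 and 3 and double mutant replicates 2 and 3 (FDR = 0.0618 to 0.135). Hoxb5 was at 16.95 to 18.95 CPM in WT and 12.3 to 17.8 CPM in double mutants (log2 fold change -0.39 ± 0.10, FDR = 0.0298). The Hoxb5 call was lost without any one of WT replicates 1, 2 and 3 and double mutant replicates 2 and 3 (FDR = 0.0546 to 0.0988).

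Several neuronal cytoskeleton genes fell. The CRMP proteins (collapsin response mediators, encoded by Crmp1 and the Dpysl genes) bind tubulin in growing axons. Of the 5 genes 3 (60%) were called lower, against 1.57% over all genes, with all 5 below 0 (median -0.25). Dpysl4 was at 62.2, 64.7, 58.7 and 50.9 CPM in WT and 37.3, 47.1, 43.5 and 33.1 CPM in double mutants (log2 fold change -0.45 ± 0.07, FDR = 0.0038), and every double mutant was below every WT library. Crmp1 was at 88.2 to 122 CPM in WT and 70.6 to 92.5 CPM in double mutants (log2 fold change -0.31 ± 0.05, FDR = 0.00498). Dpysl3 was at 196 to 222 CPM in WT and 165 to 179 CPM in double mutants (log2 fold change -0.25 ± 0.05, FDR = 0.0107). The calls of Dpysl4 and Crmp1 were kept whichever library was left out, and that of Dpysl3 was lost without WT replicate 3 (FDR = 0.0573). Of 12 tubulin genes 2 were called lower, Tubb2a (-0.28 ± 0.06, FDR = 0.0107) and Tubb2b (-0.19 ± 0.04, FDR = 0.0145). The Tubb2a call was lost without WT replicate 2 (FDR = 0.0605). The Tubb2b call was lost without either of WT replicates 1 and 2 (FDR = 0.0541 to 0.0572). Near-identical copies cover 45.8% and 32% of these 2 transcripts, so their counts are uncertain.

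Rims2, a synaptic gene, and a few genes of the early neuron and axon guidance lists were called. Rims2 encodes a scaffold of the presynaptic active zone, and was at 14.3, 12.1, 12.1 and 14.47 CPM in WT and 8.12, 8.04, 7.74 and 6.67 CPM in double mutants (log2 fold change -0.70 ± 0.13, FDR = 0.0055), with no overlap and a call kept whichever library was left out. Robo3, the receptor that lets commissural axons cross the midline, was at 2.68, 5.49, 4.65 and 1.93 CPM in WT and 0.403, 2.54, 1.05 and 0.623 CPM in double mutants (log2 fold change -1.68 ± 0.45, FDR = 0.0448), a low level with overlapping groups. The Robo3 call was lost without any one of WT replicates 2 and 3 and double mutant replicates 1, 2 and 4 (FDR = 0.0555 to 0.117). L1cam, an axonal adhesion molecule, was the 1 called gene of 30 early neuron genes (log2 fold change -0.37 ± 0.10, FDR = 0.0369). Its call was lost without any one of WT replicates 1, 2 and 3 and double mutant replicates 2, 3 and 4 (FDR = 0.0592 to 0.13). Of the 30 genes 26 lay below 0, with a median of -0.16. The 1 call was 3.33% of the list, against 2.91% called over all genes. Sema3c, a secreted guidance cue of neural crest and outflow tract, rose from a range of 25.04 to 28.8 CPM in WT to 29.4 to 38.1 CPM in double mutants (log2 fold change 0.33 ± 0.07, FDR = 0.0115). The Sema3c call was lost without either of WT replicates 2 and 3 (FDR = 0.0531 to 0.0557). Robo3 and Sema3c were the 2 called of 33 axon guidance genes (median -0.07).

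The neuron markers themselves varied between libraries. The summed level of Tubb3, Elavl3 and Elavl4 was 191, 216, 185 and 112 CPM in WT and 127, 156, 160 and 90.0 CPM in double mutants, none of the 3 was called, and the range in double mutants overlapped WT through WT replicate 4. Neural tube markers Sox2, Pax6 and Sox1 summed to 288 to 330 CPM in WT and 264 to 305 CPM in double mutants. The part of cell composition in the neural decreases was not tested.

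Neural progenitor genes moved in both directions. Notch1, the receptor that holds progenitors undifferentiated, was at 136, 158, 151 and 127 CPM in WT and 108, 162, 112 and 115 CPM in double mutants (log2 fold change -0.27 ± 0.06, FDR = 0.0143). Double mutant replicate 2 lay above all WT libraries, and the Notch1 call was lost without any one of WT replicates 2 and 3 and double mutant replicate 2 (FDR = 0.0509 to 0.106). Msi1, an RNA-binding protein of neural stem cells, fell from a range of 357 to 389 CPM in WT to 289 to 331 CPM in double mutants (log2 fold change -0.19 ± 0.05, FDR = 0.0287). The Msi1 call was lost without any one of WT replicates 1, 2 and 3 and double mutant replicates 2 and 4 (FDR = 0.0651 to 0.104). Heyl, a target of Notch, fell from a range of 17.5 to 24.7 CPM in WT to 11.6 to 14.9 CPM in double mutants without overlap (log2 fold change -0.59 ± 0.14, FDR = 0.0204). The Heyl call was lost without any one of WT replicates 1, 2 and 3 and double mutant replicate 3 (FDR = 0.051 to 0.0622). Hes1, a Notch target that also oscillates in segmenting mesoderm, was higher at 50.4, 44.9, 52.9 and 51.4 CPM in WT and 58.9, 84.98, 60.3 and 59.7 CPM in double mutants (log2 fold change 0.34 ± 0.07, FDR = 0.01). The Hes1 call was lost without either of WT replicate 2 and double mutant replicate 2 (FDR = 0.0569 to 0.0639). Of 18 progenitor genes 2 fell, 1 rose and 14 lay below 0 (median -0.10), and of 21 Notch pathway genes 2 fell and 1 rose (median -0.04). Celsr2, a cadherin of planar cell polarity and neuronal migration, fell from a range of 149 to 165 CPM in WT to 104 to 145 CPM in double mutants (log2 fold change -0.26 ± 0.06, FDR = 0.0216), the 1 call of 14 planar polarity genes. It was lost without any one of WT replicates 1, 2, 3 and 4 and double mutant replicate 4 (FDR = 0.074 to 0.116). None of the 15 genes tested of the proneural factor list was called (median -0.20). Those with the smallest p were Ebf3 (-0.20 ± 0.07, FDR = 0.136) and Neurog3 (-1.18 ± 0.48, FDR = 0.175).

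Cytoskeletal actin and its transcription factor were lower. Actb, which encodes the beta-actin of all cells, was at 2843, 3023, 2822 and 2947 CPM in WT and 2741, 2096, 2688 and 2590.3 CPM in double mutants, with replicate 2 lowest (log2 fold change -0.20 ± 0.03, FDR = 0.0038). Srf, the serum response factor that drives actin genes, was at 135, 138, 130 and 151 CPM in WT and 129, 90.3, 108 and 133 CPM in double mutants, overlapping in replicate 4 (log2 fold change -0.30 ± 0.06, FDR = 0.00928). Fscn1, a bundler of actin filaments (-0.18 ± 0.03, FDR = 0.00479), fell without overlap. The calls of these 3 genes were kept whichever library was left out. Actg1 (-0.21 ± 0.03, FDR = 0.0038) and the myosin light chain gene Myl6 (-0.24 ± 0.06, FDR = 0.021) were also called, with near-identical copies over 86.6% and 95.4% of their transcripts, and the Myl6 call was lost without any one of WT replicates 1, 2 and 4 and double mutant replicates 1, 3 and 4 (FDR = 0.0548 to 0.0929). Of the 32 actins and actin regulators 3 (9.4%) were called lower (Actb, Actg1 and Myl6), against 1.57% over all genes. None was called higher, and the median was -0.03.

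Serum response factor binds the CArG box, CC, then 6 letters of A or T, then GG. A search of the 250 bases before the start of each gene, on both strands, found it at 176 of 14120 genes (1.25%). Of the 176, 5 were called lower and 2 higher (Actb, Uncx, Srf, Mllt1, Rps6, Selenbp1 and Pde4dip), with a median of 0.02. Over all genes, 1.57% were called lower and 1.34% higher. The 80-base window of Srf, the factor itself, at chr17:46867121-46867200 on the reverse strand, is shown with its boxes in capitals. A match is a description of the letters and not a site shown to be bound.
Srf: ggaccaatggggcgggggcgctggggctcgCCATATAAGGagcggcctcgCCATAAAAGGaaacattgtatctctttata

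Ribosomal protein genes, the longest list, gave the highest count of decreases among the 46 lists, whereas by share the 5 CRMP genes had more (60.0%). Of 81 cytoplasmic ribosomal protein genes, 18 (22.2%) were called lower and none higher, against 1.57% called lower over all genes, with 62 below 0 and a median of -0.13. The large subunit held 14 of 48 and the small subunit 4 of 33. Without one library the count ran from 8 (without WT replicate 2) to 20 (without double mutant replicate 2), and 2 were called higher without double mutant replicate 1. Rplp2, of the ribosomal stalk, was at 106, 106, 92.2 and 93.2 CPM in WT and 78.6, 80.9, 70.6 and 68.7 CPM in double mutants without overlap (log2 fold change -0.46 ± 0.07, FDR = 0.0038). Rpl37a fell from a range of 71.2 to 78.6 CPM in WT to 54.3 to 59.7 CPM in double mutants (log2 fold change -0.44 ± 0.08, FDR = 0.00498). Rpl38, whose loss alters Hox translation and vertebral identity in mice, was at 15.4, 16.4, 15.2 and 16.6 CPM in WT and 12.50, 9.69, 10.2 and 10.1 CPM in double mutants (log2 fold change -0.63 ± 0.12, FDR = 0.0055). Calls of these 3 genes were kept whichever library was left out, but near-identical copies cover 46.5% of Rplp2 and 56.8% of Rpl38, and multimapping can split their reads. The summed level of all 81 did not show the difference: it was 20330, 20250, 19540 and 20370 CPM in WT and 19750, 20330, 20900 and 19390 CPM in double mutants.

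Single genes of translation, polyamine synthesis and other functions were called, in both directions. Eif5a, the translation factor that carries hypusine, was at 1467 to 1604 CPM in WT and 1134 to 1504 CPM in double mutants (log2 fold change -0.18 ± 0.03, FDR = 0.00541), with 55.6% of its transcript in copies. It was the 1 call of 24 translation factors (4.17%, against 2.91% over all genes, median 0.04). Srm, which makes the spermidine needed for hypusine, fell (log2 fold change -0.23 ± 0.04, FDR = 0.00479), while the polyamine enzyme genes Oat (0.15 ± 0.04, FDR = 0.0362) and Odc1 (0.13 ± 0.04, FDR = 0.0445) were higher. The Oat call was lost without any one of WT replicates 1, 2, 3 and 4 and double mutant replicates 1, 3 and 4 (FDR = 0.0605 to 0.169). The Odc1 call was lost without any one of WT replicates 1, 2 and 3 and double mutant replicates 1, 2, 3 and 4 (FDR = 0.0558 to 0.144). Copies cover 87.8% of Odc1. Tomm40, the channel of the outer mitochondrial membrane, Trim28, the corepressor of zinc finger proteins, and the splicing factor Sf3b4 fell by 0.22, 0.17 and 0.26 on the log2 scale (FDR = 0.00498 for each). These 3 calls were kept whichever library was left out. Copies cover 66.6% of Sf3b4.

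Of 24 genes of DNA replication 4 (16.7%) were called lower and none higher (median -0.05), against 1.57% called lower over all genes. Mcm5, of the replicative helicase, fell from a range of 501 to 512 CPM in WT to 399 to 474 CPM in double mutants (log2 fold change -0.18 ± 0.03, FDR = 0.00498), and its call was kept whichever library was left out. Mcm4 and Mcm2, of the same helicase, and Rrm2, a subunit of ribonucleotide reductase, were at -0.14 ± 0.03, FDR = 0.016, -0.12 ± 0.03, FDR = 0.0484 and -0.19 ± 0.04, FDR = 0.00558, and double mutant replicate 2 had the lowest level of each of the 4 genes. The Mcm4 call was lost without any one of WT replicates 2 and 3 and double mutant replicate 2 (FDR = 0.0513 to 0.0753). The Mcm2 call was lost without any one of WT replicates 1, 2, 3 and 4 and double mutant replicates 2, 3 and 4 (FDR = 0.063 to 0.149). The Rrm2 call was lost without double mutant replicate 2 (FDR = 0.0674). Of 24 mitotic genes 3 were called lower (12.5%, against 1.57% over all genes). These were Cdc20, the activator of the anaphase-promoting complex (-0.20 ± 0.04, FDR = 0.00832), its ubiquitin-conjugating partner Ube2s (-0.29 ± 0.06, FDR = 0.0095) and cyclin B1, Ccnb1 (-0.15 ± 0.04, FDR = 0.0361). Cdc20 was kept whichever library was left out. Ube2s was lost without WT replicate 2 (FDR = 0.0534) and Ccnb1 without any one of WT replicates 1, 2, 3 and 4 and double mutant replicates 2 and 4 (FDR = 0.0525 to 0.169). Copies cover 80.7% of Ube2s and 93.4% of Ccnb1.

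Cell cycle inhibitors showed the opposite sign. Cdkn2c, the INK4 family inhibitor p18, was at 2.08, 1.89, 3.38 and 1.82 CPM in WT and 4.15, 4.61, 4.46 and 3.8001 CPM in double mutants without overlap. The adjusted estimate was 1.96-fold higher, and the Cdkn2c call was kept whichever library was left out (log2 fold change 0.97 ± 0.19, FDR = 0.00557). Cdkn1b, the inhibitor p27, was higher, with replicate 2 well above the other 3 (55.7, 51.9, 50.7 and 49.1 CPM in WT and 47.9, 83.6, 55.9 and 58.6 CPM in double mutants, log2 fold change 0.24 ± 0.06, FDR = 0.0316). The Cdkn1b call was lost without any one of WT replicates 2, 3 and 4 and double mutant replicates 2, 3 and 4 (FDR = 0.0728 to 0.195). All 5 CDK inhibitor genes tested lay above 0, 2 of them called. Ccng1, a p53 target, was higher (0.22 ± 0.06, FDR = 0.0484). The Ccng1 call was lost without any one of WT replicates 1, 2, 3 and 4 and double mutant replicates 2, 3 and 4 (FDR = 0.0749 to 0.142). Trp53 itself was lower (-0.15 ± 0.04, FDR = 0.0451), with copies over 71.4% of its transcript. The Trp53 call was lost without any one of WT replicates 1, 2, 3 and 4 and double mutant replicates 2, 3 and 4 (FDR = 0.0798 to 0.148).

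Genes of the endoplasmic reticulum (ER) stress response lay above WT, and 5 of them were called. These genes encode chaperones and folding enzymes of the ER and are switched on by ATF6, XBP1 and ATF4. All 20 listed genes lay above 0 with a median of 0.20, and 5 (25.0%) were called higher, against 1.34% called higher over all genes. Without surrogate variables 18 of the 20 lay above 0 with a median of 0.099, and none was called. Without double mutant replicate 2, 17 lay above 0 with a median of 0.19. Dnajb9, a co-chaperone that restrains the stress sensor IRE1, was at 12.8, 11.9, 11.8 and 12.7 CPM in WT and 17.6, 16.2, 19.02 and 14.4 CPM in double mutants without overlap (log2 fold change 0.50 ± 0.09, FDR = 0.00498). Canx, the lectin chaperone calnexin, was at 592, 566, 569 and 581 CPM in WT and 658, 598, 658 and 670.1 CPM in double mutants, again without overlap (log2 fold change 0.17 ± 0.04, FDR = 0.0128). Both calls were kept whichever library was left out. Hsp90b1, the chaperone GRP94, was at 928 to 999 CPM in WT and 1059 to 1163 CPM in double mutants (log2 fold change 0.22 ± 0.05, FDR = 0.0318). The Hsp90b1 call was lost without any one of WT replicates 1, 2, 3 and 4 and double mutant replicates 2, 3 and 4 (FDR = 0.0538 to 0.0927). Pdia3, a disulphide isomerase, was at 671 to 704 CPM in WT and 625 to 868 CPM in double mutants (log2 fold change 0.17 ± 0.04, FDR = 0.0381). The Pdia3 call was lost without any one of WT replicates 1, 2, 3 and 4 and double mutant replicates 2, 3 and 4 (FDR = 0.0536 to 0.229). Dnajc3, an ER co-chaperone gene, was the remaining call. Leaving out 1 library left 2 to 4 calls: 2 without any one of the 4 WT replicates or double mutant replicate 3, 3 without double mutant replicate 2 or 4, and 4 without double mutant replicate 1. The summed level was 5658, 5275, 5566 and 5639 CPM in WT and 6306, 5494, 6607 and 6223 CPM in double mutants, where replicate 2 lay within the WT range and the other 3 above it. The 16 E9.5 libraries of other genotypes were at 5307 to 6705 CPM with a median of 6097, so that the double mutants lay within their range and every WT library below their median. Dnajb9 likewise averaged 14.47 ± 1.203 CPM in Kat6a E/E, 15.97 ± 1.45 in Kat6b E/E, 15.5 ± 1.01 in Kat6a null and 16.2 ± 1.299 in Kat6b null embryos, against 12.3 ± 0.506 in WT and 16.8 ± 1.98 in double mutants (SD, n = 4 each). With GC content and length trends removed, 1 of the 19 genes tested in that setting was called.

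ATF6 and XBP1 act through the ER stress element, which reads CCAAT, then 9 bases of any kind, then CCACG. Its letters occurred in the 250-base window before the start, on either strand, of 16 of 14120 genes (0.113%). Of the 16, 3 were called, all higher (Canx, Hsp90b1 and Dnajc3), with 13 of the 16 above 0 and a median of 0.09. Over the 14120 genes, 190 were called higher and 7033 lay above 0. The 3 called genes are members of the ER list above, so this count repeats their calls. As for the CArG box, a match describes the letters and not a site shown to be bound. Of the 19 listed ER genes with a window, 6 held it. The 80-base windows of the 3 called genes show the element in capitals, on the strand of each gene, at chr11:50216596-50216675 (reverse), chr10:86541471-86541550 (reverse) and chr14:119175209-119175288 (forward). The element ends 98, 56 and 60 bases before the annotated starts of Canx, Hsp90b1 and Dnajc3.
Canx: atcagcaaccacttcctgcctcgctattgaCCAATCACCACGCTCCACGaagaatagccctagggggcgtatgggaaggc
Hsp90b1: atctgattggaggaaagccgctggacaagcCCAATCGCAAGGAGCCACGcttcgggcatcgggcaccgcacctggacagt
Dnajc3: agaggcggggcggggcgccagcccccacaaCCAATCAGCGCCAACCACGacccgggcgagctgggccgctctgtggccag

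Hypoxia and glycolysis genes gave 10 calls of 32 (31.2%), all higher, and these rested on 1 library. The summed level of the 32 genes was 9939, 9125, 9218 and 10920 CPM in WT and 10020, 19840, 9923 and 11860 CPM in double mutants, against 8648 to 10670 CPM in the 16 E9.5 libraries of other genotypes, so that replicate 2 lay far above every other library and replicate 4 a little above. Vegfa, the vascular growth factor induced by hypoxia, was at 80.7, 96.6, 81.4 and 98.995 CPM in WT and 82.5, 364, 67.5 and 141 CPM in double mutants (log2 fold change 0.36 ± 0.08, FDR = 0.016), and at 0.16, FDR = 0.684, without replicate 2. Ddit4, an mTOR inhibitor induced by hypoxia and stress, was at 49.8, 44.5, 39.3 and 37.1 CPM in WT and 36.8, 687, 41.3 and 124 CPM in double mutants (log2 fold change 1.06 ± 0.25, FDR = 0.0344), and at 0.60, FDR = 0.457, without replicate 2. Without that library none of the 32 was called higher and 1, the glycolytic enzyme gene Eno1, was called lower, the median fell from 0.31 to 0.17, and the endothelial markers that were raised in the same library were at 222 to 235 CPM in the other 3 double mutants. Without any one of the others 1 (WT replicate 3) to 18 (double mutant replicate 1) were called higher, with 3 without WT replicate 2 and 6 without double mutant replicate 4. Replicate 2 was the one double mutant of its litter, so that embryo and litter cannot be told apart here.

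Several of the most increased genes followed the same library. Ppp1r3c, a glycogen-targeting phosphatase subunit, was at 4.24, 4.72, 3.64 and 4.93 CPM in WT and 5.42, 49.6, 5.57 and 9.41 CPM in double mutants (1.002 ± 0.18, FDR = 0.00498). Ndufa4l2, a mitochondrial protein induced by hypoxia, was at 1.82, 0.857, 1.44 and 2.47 CPM in WT and 2.59, 35.5, 2.43 and 3.43 CPM in double mutants (1.32 ± 0.31, FDR = 0.0214). Adm2, an adrenomedullin peptide, was at 0.173, 0.257, 0.254 and 0.482 CPM in WT and 0.403, 6.94, 0.656 and 0.997 CPM in double mutants (1.53 ± 0.43, FDR = 0.0484). Without replicate 2 the FDR of these 3 genes was 0.121, 0.131 and 0.24, and those of Ero1a, Loxl2, Soat1, Plekha2, Egln1, P4ha2 and Higd1a, also called higher, were 0.0807, 0.103, 0.15, 0.0529, 0.29, 0.478 and 0.0678. Clcn3, an endosomal chloride-proton exchanger (58.6, 55.7, 63.9 and 66.2 CPM in WT and 67.9, 124, 69.4 and 81.9 CPM in double mutants, log2 fold change 0.36 ± 0.06, FDR = 0.0038), and Nampt, of NAD synthesis (0.34 ± 0.06, FDR = 0.0055), were highest in replicate 2 too but remained called without it (FDR = 0.0363 and 0.0431). Copies cover 53.9% of Ero1a, 49.6% of Loxl2, 20.4% of Egln1 and 20.6% of Higd1a.

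**Figure D3:**
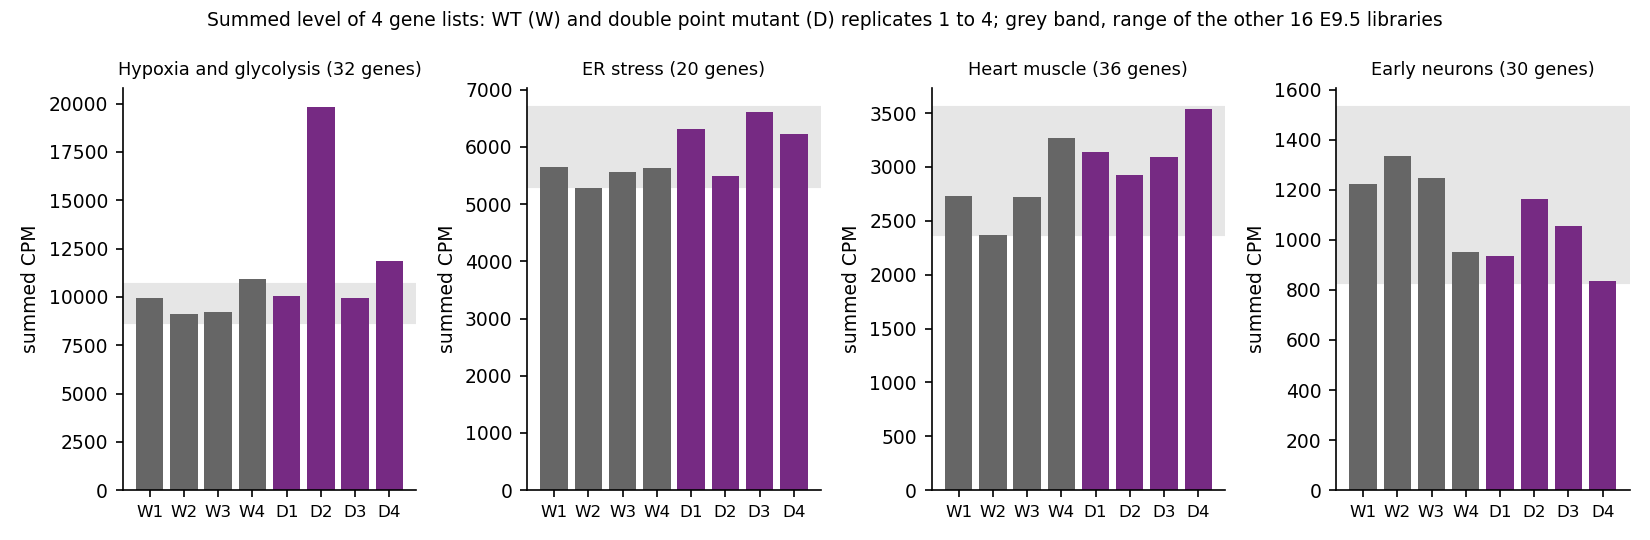
Summed CPM (vertical axes, from 0) of 4 gene lists in WT replicates 1 to 4 (W1 to W4) and double point mutant replicates 1 to 4 (D1 to D4), one bar a library, with a grey band for the range of the other 16 E9.5 libraries. Hypoxia and glycolysis is by far highest in D2, with D4 and W4 a little above the band. ER stress is higher in D1, D3 and D4 than in WT, and heart muscle and early neuron genes overlap between groups.

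Signalling pathways held single calls. In the Wnt pathway, which patterns the axis and promotes progenitor growth, 4 of 56 genes (7.14%) were called, against 2.91% over all genes. Tnfrsf19, a receptor and Wnt target also called Troy, was at 98.9, 91.1, 107 and 91.5 CPM in WT and 122, 118, 125 and 117 CPM in double mutants without overlap (log2 fold change 0.32 ± 0.05, FDR = 0.0038). Rspo3, a secreted enhancer of Wnt receptors, was at 16.95, 21.4, 18.2 and 11.1 CPM in WT and 27.02, 21.1, 25.7 and 24.9 CPM in double mutants, where replicate 2 fell within the WT range (log2 fold change 0.59 ± 0.10, FDR = 0.00498). Sfrp2, a secreted Wnt antagonist, fell from a range of 143 to 150 CPM in WT to 107 to 129 CPM in double mutants (log2 fold change -0.29 ± 0.05, FDR = 0.00557). These 3 calls were kept whichever library was left out. The ligand Wnt9a was higher (0.57 ± 0.15, FDR = 0.0351). The Wnt9a call was lost without any one of WT replicates 1, 2 and 3 and double mutant replicates 2, 3 and 4 (FDR = 0.0562 to 0.154). Of 17 Wnt receptors none was called, and the median over the pathway was 0.04.

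In the Hedgehog pathway, which patterns neural tube and sclerotome, the negative regulator Sufu was at 133, 137, 133 and 135 CPM in WT and 115, 116, 114 and 116 CPM in double mutants (log2 fold change -0.21 ± 0.04, FDR = 0.00498), the 1 call of 15 genes, and its call was kept whichever library was left out. The median of the pathway was -0.15. In the FGF pathway Fgf15, of the midbrain and pharyngeal region, was called higher (27.1, 20.7, 21.3 and 29.7 CPM in WT and 32.4, 33.4, 32.9 and 24.9 CPM in double mutants, log2 fold change 0.40 ± 0.09, FDR = 0.0183). The Fgf15 call was lost without any one of WT replicates 2 and 3 and double mutant replicates 1, 2 and 3 (FDR = 0.0543 to 0.132). All 8 FGF ligand genes lay above 0, among them Fgf8 (0.35 ± 0.12, FDR = 0.101). All 4 FGF receptor genes lay below 0 (median -0.15), as did 3 of 9 feedback targets. In the retinoic acid pathway the receptor Rxra was called lower (-0.17 ± 0.04, FDR = 0.0295). The Rxra call was lost without any one of WT replicates 1, 2, 3 and 4 and double mutant replicates 2, 3 and 4 (FDR = 0.0547 to 0.104). In this list 17 of 19 genes lay below 0 (median -0.10). None of 32 BMP and TGF-beta genes was called (median 0.08). The nearest were Bmp5 (0.26 ± 0.08, FDR = 0.0703) and Id2 (0.20 ± 0.07, FDR = 0.103).

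Of the heart muscle genes, Myl3 and Tnnt2 were called higher. Myl3, the ventricular and slow muscle myosin light chain, was at 38.1, 33.5, 37.5 and 42.6 CPM in WT and 55.6, 57.96, 54.6 and 67.2 CPM in double mutants without overlap (log2 fold change 0.60 ± 0.11, FDR = 0.00592). The Myl3 call was lost without WT replicate 3 (FDR = 0.0573). Tnnt2, cardiac troponin T, was at 87.7, 66.03, 81.6 and 98.4 CPM in WT and 111, 97.6, 98.9 and 124 CPM in double mutants (log2 fold change 0.36 ± 0.09, FDR = 0.0415). The Tnnt2 call was lost without any one of WT replicates 2, 3 and 4 and double mutant replicates 2 and 4 (FDR = 0.0557 to 0.113). Of 22 sarcomere and calcium genes 19 lay above 0 with a median of 0.28, 2 called higher, and of 14 cardiac transcription factors Srf was the one called (lower). Trdn, the calcium release protein triadin, was also higher at low counts (1.64, 0.943, 1.86 and 1.34 CPM in WT and 3.11, 2.82, 2.16 and 2.68 CPM in double mutants, log2 fold change 0.95 ± 0.25, FDR = 0.0369). The Trdn call was lost without any one of WT replicates 1, 2, 3 and 4 and double mutant replicates 1, 2 and 4 (FDR = 0.0622 to 0.146). The summed level of the 36 genes was 2728, 2367, 2718 and 3266 CPM in WT and 3141, 2928, 3090 and 3538 CPM in double mutants, so that WT replicate 4 lay among the double mutants. The heart markers Nkx2-5, Myl7 and Tnnt2 summed to 174 to 259 CPM in WT and 238 to 313 CPM in double mutants, and the part of the share of heart tissue in these differences was not tested.

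The genes with the largest folds included some of low expression. Adra1a, an alpha-1 adrenergic receptor, was at 1.82, 1.37, 2.199 and 1.72 CPM in WT and 0.403, 1.17, 0.262 and 0.436 CPM in double mutants without overlap (log2 fold change -1.91 ± 0.36, FDR = 0.0055), kept whichever library was left out. Ptpn5, a brain tyrosine phosphatase, was at 2.25, 3.69, 1.78 and 2.09 CPM in WT and 0.749, 0.963, 0.787 and 0.685 CPM in double mutants (log2 fold change -1.44 ± 0.32, FDR = 0.0152). The Ptpn5 call was lost without WT replicate 2 (FDR = 0.0669). Slc7a11, the cystine transporter, was at 18.7, 18.9, 16.6 and 15.8 CPM in WT and 10.4, 15.3, 8.85 and 6.48 CPM in double mutants (log2 fold change -0.91 ± 0.22, FDR = 0.0326). The Slc7a11 call was lost without any one of WT replicates 1 and 2 and double mutant replicates 3 and 4 (FDR = 0.0506 to 0.0633). Rasl2-9, a Ran-like GTPase, was at 7.29 to 11.1 CPM in WT and 5.25 to 6.19 CPM in double mutants (log2 fold change -0.83 ± 0.17, FDR = 0.00836), and Cpne7, a calcium-dependent copine, at 1.38 to 2.89 CPM in WT and 2.94 to 5.57 CPM in double mutants (log2 fold change 1.002 ± 0.19, FDR = 0.00557), both kept whichever library was left out. Fnd3c2 (-0.78 ± 0.18, FDR = 0.0183), with copies over 46.6% of its transcript, was lost without any one of WT replicates 2, 3 and 4 and double mutant replicates 3 and 4 (FDR = 0.0563 to 0.093). Lrrc18 (1.39 ± 0.39, FDR = 0.049) was lost without any one of WT replicates 1, 2 and 3 and double mutant replicates 1, 2, 3 and 4 (FDR = 0.0548 to 0.248). Among the genes of smallest p not yet given, Gm14326 (0.54 ± 0.10, FDR = 0.00498), the La protein gene Ssb (0.20 ± 0.04, FDR = 0.0055) and the phosphatase catalytic subunit gene Ppp1cb (0.20 ± 0.04, FDR = 0.0055) were higher and kept whichever library was left out.

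Single calls stood in other lists. Of 75 respiratory chain genes the ATP synthase subunit gene Atp5mc2 (-0.47 ± 0.11, FDR = 0.0242, copies over 89.2%) and the cytochrome oxidase gene Cox6a1 (-0.19 ± 0.05, FDR = 0.0484) were lower. These 2 calls were 2.67% of the list, against 2.91% called over all genes. The Atp5mc2 call was lost without any one of WT replicates 2, 3 and 4 and double mutant replicate 4 (FDR = 0.0503 to 0.0811). The Cox6a1 call was lost without any one of WT replicates 1, 2, 3 and 4 and double mutant replicates 1, 2 and 4 (FDR = 0.0706 to 0.146). In the extracellular matrix list of 30, the cartilage and notochord collagen gene Col9a1 fell (-0.23 ± 0.06, FDR = 0.034). The Col9a1 call was lost without any one of WT replicates 1, 2, 3 and 4 and double mutant replicates 1 and 4 (FDR = 0.0608 to 0.114). The link protein gene Hapln1 rose (0.31 ± 0.07, FDR = 0.0154). The Hapln1 call was lost without WT replicate 3 (FDR = 0.0557). The cold-shock RNA-binding protein gene Rbm3 rose (0.34 ± 0.06, FDR = 0.00579, kept whichever library was left out, copies over 27.9%) among 24 immediate early and heat shock genes. Trim71, a translational repressor of early embryos and progenitors, fell (-0.21 ± 0.06, FDR = 0.0497) among 9 fetal programme genes. The Trim71 call was lost without any one of WT replicates 1, 2, 3 and 4 and double mutant replicates 2, 3 and 4 (FDR = 0.0896 to 0.223). Hsd11b2, a steroid dehydrogenase of placenta and embryo, fell (-0.25 ± 0.06, FDR = 0.0232) among 5 genes tested of the trophoblast and decidua list. The Hsd11b2 call was lost without any one of WT replicates 2, 3 and 4 and double mutant replicates 2 and 4 (FDR = 0.0543 to 0.101).

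No gene was called in 10 further lists. Their medians were -0.01 for 25 neural crest genes, -0.08 for 9 Dlx and Msx genes, -0.19 for 8 Pax genes, 0.16 for 21 erythroid genes, -0.05 for 28 endothelial and early blood genes, -0.16 for 22 visceral endoderm genes, -0.07 for 16 imprinted growth genes, -0.06 for 19 other histone acetyltransferases and deacetylases, 0.05 for 22 cholesterol synthesis genes and -0.04 for 20 limb bud genes, beside the 4 lists without calls described above (T-box, proneural, BMP and TGF-beta, and MYST complexes). The glial and crest factor gene Sox10 (32.9, 35.1, 37.5 and 40.4 CPM in WT and 25.4, 34.6, 21.6 and 26.04 CPM in double mutants, log2 fold change -0.43 ± 0.13, FDR = 0.0682) and the endothelin receptor gene Ednrb (-0.32 ± 0.11, FDR = 0.101) were the nearest of the crest genes.

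**Figure D4:**
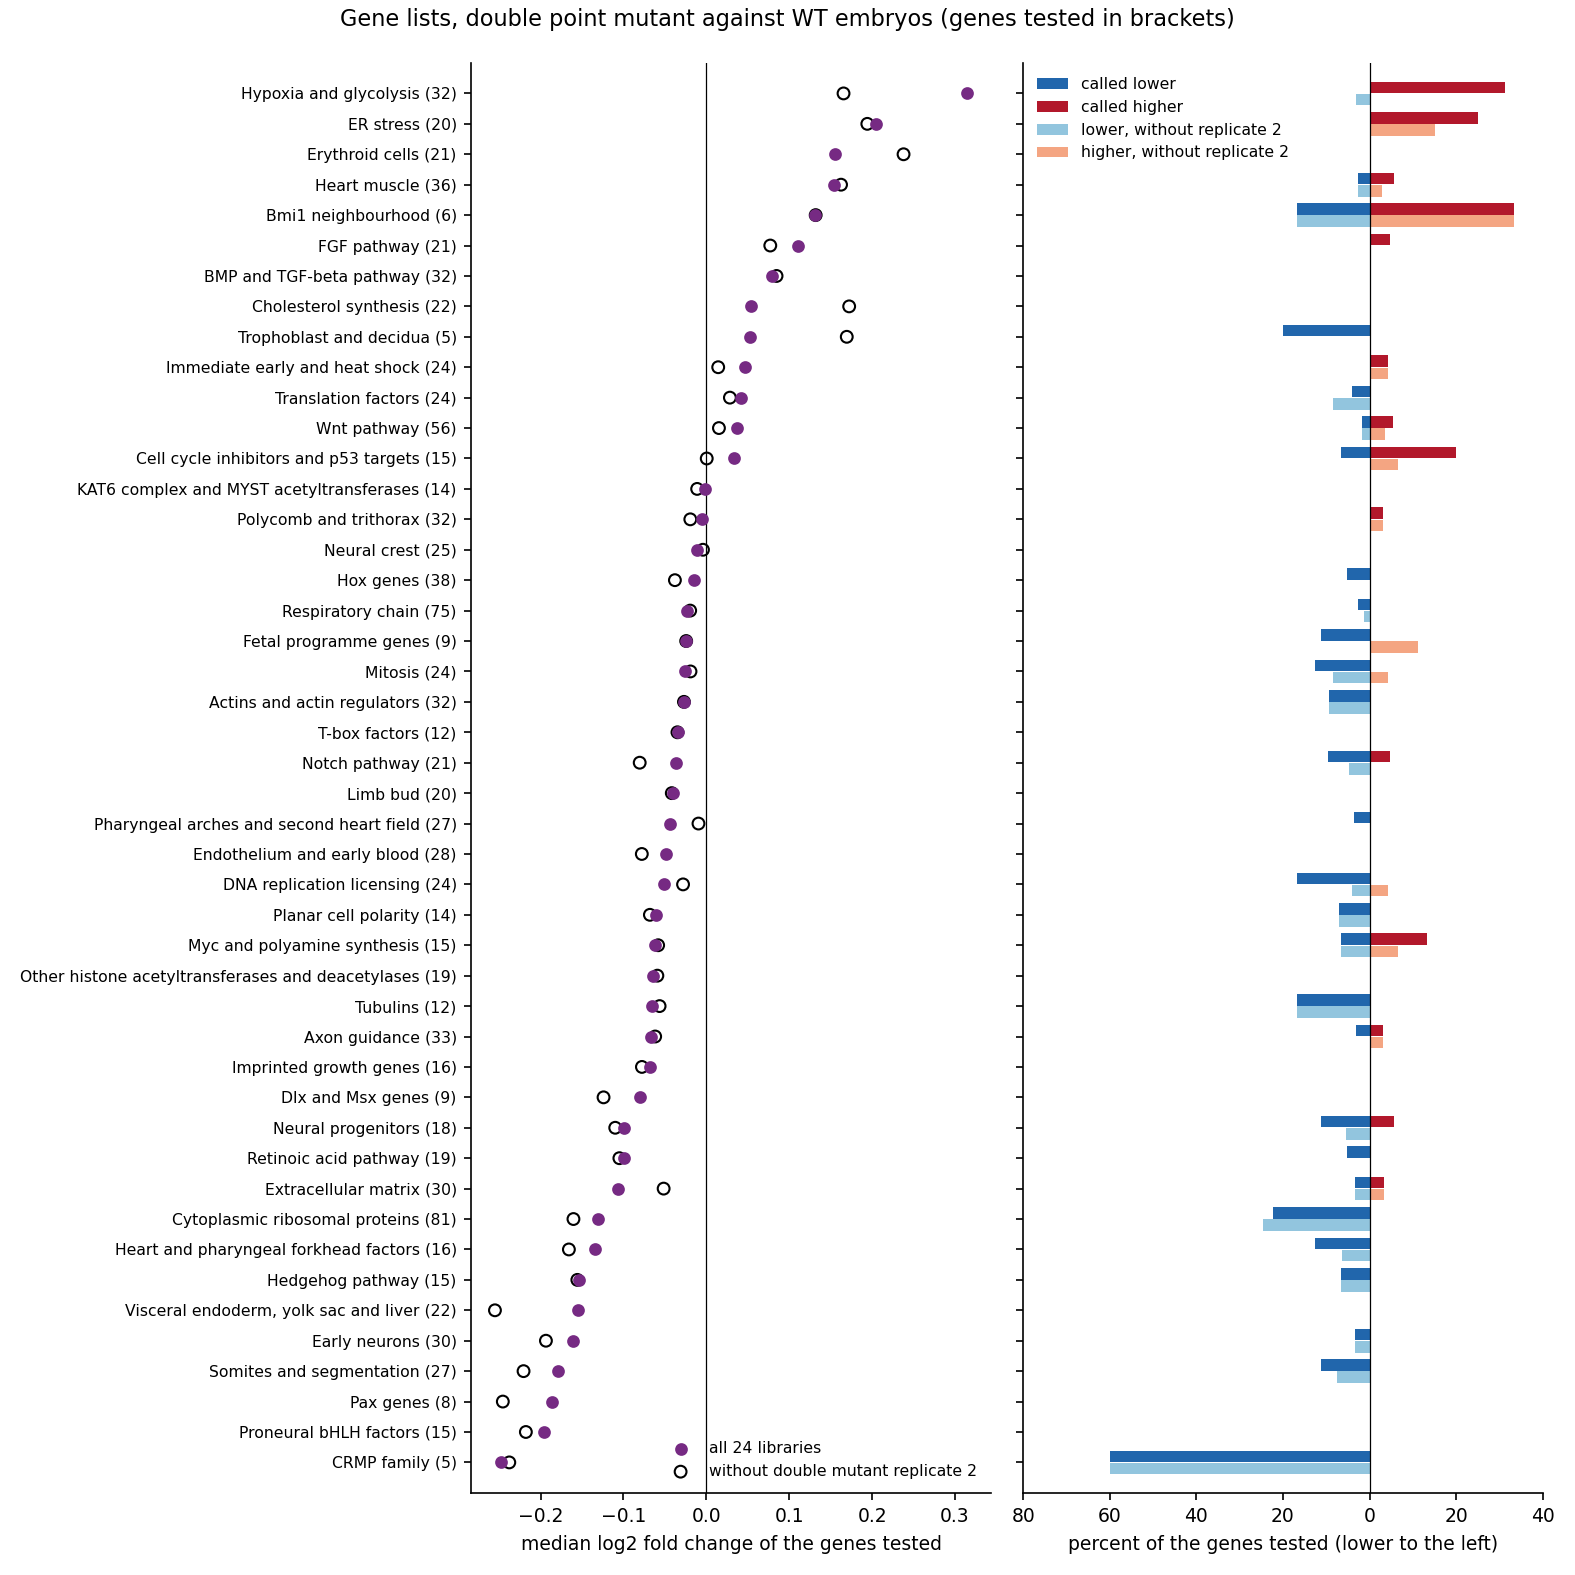
Left, the median log2 fold change of double point mutant over WT embryos for 46 gene lists (genes tested in brackets) with all 24 libraries (filled) and without double mutant replicate 2 (open). Right, the percent of each list called lower (left of 0) and higher (right of 0), in dark colours with all libraries and in pale colours without that replicate; hypoxia and glycolysis goes from 31.2% higher to none, whereas ribosomal proteins go from 18 to 20 genes lower.

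Calls followed the base composition of transcripts. Median GC content was 56.2% over the genes called lower and 45.3% over those called higher, against 50.7% over all tested. From the lowest to the highest quintile of genes by GC content, 9, 10, 38, 52 and 114 were called lower and 86, 44, 24, 25 and 11 higher. The median log2 level of the genes of the highest quintile minus that of the lowest, with each gene taken relative to its mean over the 8 libraries, was 0.0683, 0.0898, 0.0513 and 0.000638 in WT and -0.0628, 0.0109, -0.129 and -0.0296 in double mutants. With the trends of GC content and length removed from each library, a setting chosen after the data were seen, 295 genes were called, 147 lower and 148 higher, and 219 of the 413 were among them with the same direction. Commd3, Bmi1, Uncx, Dpysl4, Rims2, Actb, Sufu, Rplp2 and Cdkn2c were called in that setting (FDR = 0.00135, 0.00334, 0.00936, 0.00143, 0.00894, 0.000756, 0.0192, 0.000778 and 0.00395), and Celsr2, Msi1, Ssb, Foxc2 and Hsp90b1 were not (FDR = 0.241, 0.149, 0.156, 0.131 and 0.121).

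**Figure D5:**
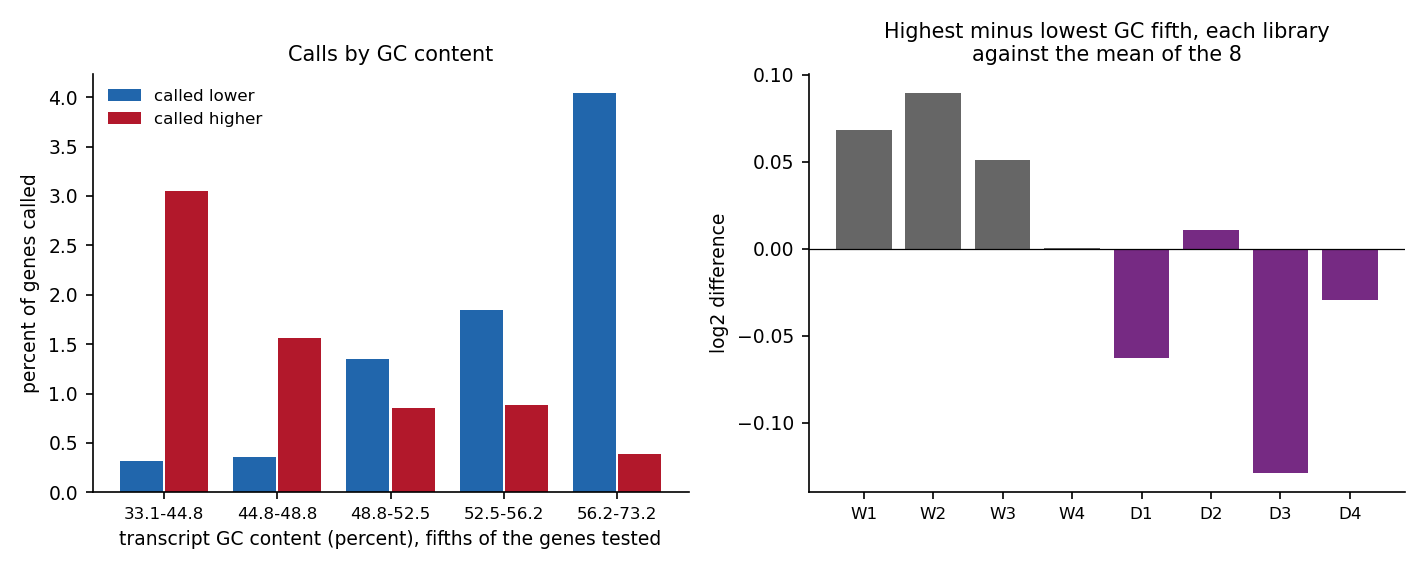
Left, percent of genes called lower (blue) and higher (red) in double point mutants for quintiles of the genes tested by transcript GC content, in percent. Right, the difference in median log2 level between genes of the highest and lowest quintile in each of the 8 libraries, each gene relative to its mean over them (W, WT; D, double point mutant), where all double mutant bars but that of replicate 2 lie below 0.

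Within 5 Mb of Kat6a 1 of 56 genes tested was called (Plekha2, which was highest in double mutant replicate 2), and within 5 Mb of Kat6b 1 of 60 (Adk). Within 20 Mb the counts were 5 of 162 (3.09%) and 5 of 173 (2.89%), against 2.91% over all genes.

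The single point mutants show which differences a direct test separates from 1 mutation alone. Against Kat6a E/E embryos 20 genes (0.141%) were called, 3 lower and 17 higher in double mutants. The 3 lower were Celsr2 (log2 difference -0.38 ± 0.06, FDR = 0.0163), Dpysl4 (-0.37 ± 0.07, FDR = 0.0353) and Notch1 (-0.30 ± 0.06, FDR = 0.0371), and the higher ones included Fgf15 (0.64 ± 0.10, FDR = 0.0132), Clcn3 (0.36 ± 0.06, FDR = 0.0163) and Gpr15lg (1.32 ± 0.23, FDR = 0.0163). None of the 20 was called without double mutant replicate 2. Against Kat6b E/E embryos 4 genes (0.0282%) were called, Commd3 and Bmi1 higher as given above, and Adam22, a synaptic adhesion protein gene (-0.73 ± 0.13, FDR = 0.0391), and Rims2 (-0.73 ± 0.14, FDR = 0.0391) lower, and all 4 were called without double mutant replicate 2.

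Side by side with the same WT embryos, Kat6a E/E gave 39 calls (0.275%), Kat6b E/E none, Kat6a null 375 (2.64%) and Kat6b null 72 (0.508%). Because these comparisons share the WT libraries, they are given as values. Uncx was at -0.43 ± 0.15, FDR = 0.32 in Kat6a E/E, -0.04 ± 0.15, FDR = 0.999 in Kat6b E/E and -0.57 ± 0.16, FDR = 0.0588 in Kat6a null embryos, against -1.003 in double mutants. Tbx1 was at -0.22 ± 0.09, FDR = 0.407 in Kat6a E/E and -0.77 ± 0.10, FDR = 0.000171 in Kat6a null embryos, against -0.33 in double mutants. Rims2 was at -0.06 ± 0.12, FDR = 0.908 in Kat6a E/E, 0.03 ± 0.12, FDR = 0.999 in Kat6b E/E and -0.45 ± 0.13, FDR = 0.0488 in Kat6a null embryos, against -0.70 in double mutants. Skida1 was at -0.68 ± 0.08, FDR = 6.02e-05 in Kat6a null embryos, against -0.35 in double mutants.

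The same 2 genotypes were also profiled in LSK cells of the E14.5 fetal liver. There, no gene was called between double mutant and WT cells by limma (896 of 13071, 6.85%, at an unadjusted p under 0.05), and edgeR's quasi-likelihood test called 1. Without double mutant LSK replicate 1, 2170 genes were called. Genes with a count numbered 16505, 16938, 16686 and 17647 in WT LSK replicates 1 to 4 and 16710, 12600, 13555 and 13481 in double mutants. Double mutant replicates 2 to 4 were littermates, as were WT replicates 1 to 3, and no litter held both genotypes. The part of library quality and litter in the LSK values was not tested. Of the 223 genes called lower in embryos, 194 were tested in LSK cells, 153 of them below 0 with a median of -0.11, against 6919 of 12188 below 0 with a median of -0.03 over all genes tested in both. At an unadjusted p under 0.05 in LSK cells were 28 of them (14.4%), 25 in the same direction, against 6.64% of all genes. Of the 190 called higher, 171 were tested in LSK cells, 88 of them below 0, with 10 (5.85%) at an unadjusted p under 0.05.

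Bmi1 was at 63.6 ± 9.99 CPM in WT and 85.8 ± 10.9 CPM in double mutant LSK cells (SD, n = 4; log2 difference 0.46 ± 0.19, FDR = 0.656), and Commd3 at 61.5 ± 6.32 and 73.9 ± 8.29 CPM (0.26 ± 0.14, FDR = 0.743). The ribosomal protein gene Rpl37a was at a log2 difference of -0.30 ± 0.13 (FDR = 0.673). Tnfrsf19 was at 2.35 to 3.72 CPM in WT and 0 to 0.701 CPM in double mutant LSK cells (-2.92 ± 0.90, FDR = 0.449), and Cpne7 averaged 3.56 ± 2.598 and 2.82 ± 1.078 CPM (-1.41 ± 0.64, FDR = 0.718), below 0 where embryos were above. For Notch1 the fitted log2 difference of 0.38 ± 0.13 (FDR = 0.567) ran against the mean CPM, 212 ± 46.0 in WT and 157 ± 85.9 in double mutants, so no direction is given. Uncx, Rims2 and Dpysl4 did not pass the count filter in LSK cells.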

How the data were processed

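Counts of read pairs per gene were used as the authors deposited them, per library and not normalised. According to the study's methods, reads were aligned to mm39 with Rsubread and counted with featureCounts over RefSeq genes of a strict annotation. The labels and the methods differ on input RNA, sequencer and read length, and the kit named keeps no strand, so that overlapping genes on opposite strands cannot be told apart. Of 26411 genes in the files 26359 were matched to the gene table, 21030 of them protein-coding. Protein-coding genes without Y-linked genes were filtered with filterByExpr, scaled by TMM and fitted with voomLmFit of edgeR 4.0.16 and limma 3.58.1 in R 4.3.3 on all 24 E9.5 libraries (14183 genes), with genotype, 4 surrogate variables of wsva, litter as a random block (correlation 0.107) and robust moderation, as in the study's methods. The 16 LSK libraries were fitted in the same way (13071 genes, correlation 0.331). Genes were called at an FDR under 0.05 (Benjamini-Hochberg). CPM values are counts scaled to the effective library size. Each library is 1 embryo, or 1 fetus for LSK cells.

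Genes named were Kat6a, Kat6b and the 7 heart and pharynx factors, the 15 called genes of smallest p and the 8 of largest fold in each direction, up to 4 called genes of each list by p (or up to 2 of smallest p where none was called) and up to 5 genes of each direct comparison. Eno1 and Dnajc3, Adk, Mllt1, Rps6, Selenbp1, Pde4dip, Meox1, Tcf15 and the tissue markers were named as members of small counts or sums. The members and gene lists were chosen with earlier results of these data known. Near-identical copies were searched with BLAST 2.17.0 on the GRCm39 genome (hits of at least 66 bases at 95% identity), and a gene with over 20% of its transcript in copies was called uncertain. Promoter windows were read from GRCm39 at the annotated starts of GENCODE genes, and GC content and length from their transcripts. Alternatives included other numbers of surrogate variables, edgeR's quasi-likelihood test, DESeq2 1.42.0, other filters and leaving out each library. The fits were tested on simulated data. A few results that the naming rule would give are not reported here.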

Additional observations from a re-analysis of the deposited data

Results flagged for a closer look

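Of 378 sets of 4 values tested (each named gene, list sum and marker sum in WT and in double mutants), 36 had 1 library whose gap to the nearest other, as a share of the whole range, exceeded Dixon's critical value. Chance alone gives such a gap in about 1 of 20 sets. Double mutant replicate 2 accounted for 20, WT replicate 4 for 10 and other libraries for 6.

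In double mutant replicate 2, genes raised with hypoxia stood far above the other 3 double mutants: Ddit4 at 687 CPM (others 36.8 to 124), Ero1a at 245 CPM (64.1 to 90.3), Ppp1r3c at 49.6 CPM (5.42 to 9.41), Ndufa4l2 at 35.5 CPM (2.43 to 3.43), Higd1a at 55.3 CPM (28.2 to 32.8) and Adm2 at 6.94 CPM (0.403 to 0.997). The endothelial markers at 336 CPM, the endothelium and early blood list at 1008 CPM, the somite list at 604 CPM and the cell cycle inhibitor list at 1179 CPM were also high there, as were Kat6b at 56.0 CPM, Hes1 at 85.0 CPM, Notch1 at 162 CPM and Pax2 at 12.4 CPM. The same library was low for the actin list at 12360 CPM, the Myc and polyamine list at 1944 CPM, Actg1 at 885 CPM, Odc1 at 548 CPM, Canx at 598 CPM and Hsd11b2 at 41.5 CPM. For Canx and Odc1, both called higher, this library was the double mutant nearest to WT.

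WT replicate 4 was high for the visceral endoderm markers at 128 CPM, for Apoa1 at 18.3 CPM and Apom at 5.04 CPM, which visceral endoderm expresses, and for maternal or definitive blood markers at 39.1 CPM. It was low for the erythroid list at 4489 CPM and the primitive erythroid markers at 3196 CPM. Also set apart in this library were Tomm40 at 211 CPM, Loxl2 at 168 CPM, Ppp1cb at 359.6 CPM and Kat2a at 175 CPM.

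Among other libraries, WT replicate 3 had the ribosomal protein list at 19539 CPM (others 20250 to 20372) and Cdkn2c at 3.38 CPM, still below the lowest double mutant. Double mutant replicate 3 had the MYST complex list at 1007 CPM and Rasl2-9 at 5.25 CPM, and double mutant replicate 4 had Msi1 at 289 CPM and Fgf15 at 24.9 CPM.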

How the results depend on the processing

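Calls were 413 against WT, 20 against Kat6a E/E, 4 against Kat6b E/E and 0 in LSK cells, the order kept below. With 0 surrogate variables they were 0, 0, 0 and 1, with 2 they were 428, 182, 4 and 2, and with 6 they were 811, 87, 116 and 22. edgeR's quasi-likelihood test gave 483, 21, 14 and 1 with the surrogate variables and 0, 3 and 0 without them in embryos, and DESeq2 with the surrogate variables gave 537, 47 and 55. Calls were 507, 24 and 16 without the litter block, 389, 70 and 37 with no filter on low counts, 139 in the first comparison with sample weights, and 0 with only the 8 libraries and no surrogate variable (469 with 1). With GC and length trends removed, a setting added after the data were seen, calls were 295, 10 and 3, and without surrogate variables 14, 1 and 0. Leaving out 1 library gave 115 to 502, 0 to 58, 0 to 50 and 0 to 2170 calls.

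Groups share replicate numbers, but same-numbered libraries did not deviate together (correlations 0.026, 0.075, -0.018 and 0.106), and the numbers pair no samples. With a replicate block the calls were 375, 37, 1 and 0.

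Over the 132 named genes and all alternatives, 2336 fold changes kept direction and side of the threshold, 793 kept direction but not the call, 28 gained a call and 2 turned: Foxa2 (-0.29 to 0.0062 leaving out 1 library, turned without double mutant replicate 4) and Kat6a (-0.066 to 0.0082, turned without WT replicate 3), neither of them called. The cause of these changes was not tested. Depth limits the genes of lowest CPM, for which 1 library holds few pairs.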

Other observations

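Genes called in double mutants also differed in level and promoter letters, given here as counts. The genes called lower had a median of 109 CPM in WT and those called higher 56.1 CPM, against 28.6 CPM over all genes tested. The letters TATAAA occurred in the 250-base window of 29 of the 223 genes called lower (13.0%) and 11 of the 190 called higher (5.79%), against 1193 of 14120 (8.45%). The hypoxia-response letters ACGTG occurred at 2 of the 10 called hypoxia and glycolysis genes and at 2776 of 14120 windows (19.7%). Over all 32 genes of that list they occurred at 12 (37.5%). The other hypoxia-response letters searched, GCGTG, occurred at 1 of the 10, at 9 of the 32 (28.1%) and at 5065 of 14120 windows (35.9%).

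Other tissues gave values without calls. The tight junction gene Cldn5 of endothelium was at -0.29 on the log2 scale (FDR = 0.129), the kidney and hindbrain factor gene Pax2 at -0.47 (FDR = 0.122), the transferrin receptor gene Tfrc of erythroid cells at 0.23 (FDR = 0.183), the erythroid factor gene Gata1 at 0.44 (FDR = 0.457) and the macrophage receptor gene Cx3cr1 at 1.12 (FDR = 0.205).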
